A study of Drosophila melanogaster with 48 samples.

Results

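Poly(A) RNA of Drosophila S3 cells was compared 5 days after transfection with 2 ug of dsRNA against Csl4 or, as control, against GFP. S3 is an embryo-derived Schneider line. The comparison is one deposited table, which its header ties to 4 of the 48 samples of the series, 2 Csl4 and 2 GFP libraries (replicates 1 and 3 of each), and it was taken over all 15065 gene rows. The same series holds S3 libraries with dsRNA against Rrp6 and Rrp40 under the same dose and time, and S2 libraries of the same kind. GFP replicate 2, from the Rrp40 table, was added as a further control, and Rrp6 and Rrp40 libraries entered the fit to give the spread. The labels list GFP replicate 2 as 2 technical replicates, recovered here as 1 library, and no Csl4 library of this kind is a replicate 2. The labels call the libraries biological replicates and do not say whether they came from separate cultures, so p-values measure only the spread between these samples. In bulk RNA, fewer cells of a type and less RNA per cell cannot be told apart.

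The RNA exosome is a multi-subunit machine that trims and degrades RNA from its 3′ end. In the nucleus it processes snoRNAs, snRNAs and ribosomal RNA and removes many noncoding transcripts, and in the cytoplasm it takes part in mRNA turnover. Its core is a ring of catalytically inactive subunits with a cap of RNA-binding proteins, among them Csl4, Rrp4 and Rrp40. RNA passes the cap and ring towards the nuclease Dis3, and Rrp6 is a further nuclease bound to the nuclear form.

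The tables give group means, from which whole reads per library were worked back. The 2 Csl4 libraries held 3055056 and 1451054 reads on genes, and the GFP libraries 5568743, 69426568 and 984832 (replicates 1, 2 and 3). The Csl4 libraries could be told apart by depth only, so they are called the deeper and the shallower one. Levels are CPM (edgeR's counts per 1e+06 reads on tested genes, with library sizes scaled by TMM), and they compare one gene between libraries, not genes with each other. A change is the fitted log2 ratio of Csl4 to GFP libraries ± SE (2 against 3 libraries), from edgeR's quasi-likelihood test with a block that pairs deeper with deeper and shallower with shallower libraries. A gene is called at a Benjamini-Hochberg adjusted p of at most 0.05 over all genes tested.

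The gene Csl4 itself did not show a fall of its reads. It had 168.8 and 3859 CPM in the deeper and shallower Csl4 libraries, against 35.2, 33.4 and 23.3 in GFP replicates 1, 2 and 3, so both Csl4 libraries lay above every GFP library. The change was 5.72 ± 1.14 and was not called (adjusted p = 0.0954). Reads from the introduced dsRNA and from the cells' own transcript cannot be told apart in a count per gene, so these reads do not check the knockdown, which the submitters assayed by Western blot per the labels' protocols. Csl4 libraries therefore means, throughout, the libraries labelled with Csl4 dsRNA. In Csl4 libraries the untargeted subunit genes Rrp40 (0.09 ± 1.20) and Rrp6 (-0.23 ± 0.89) were not called. Their SEs are wide, and the spread was estimated with libraries labelled with dsRNA against these same genes, so little is read from this. The other targeted genes also had more reads in their own libraries: Rrp6 had 152 and 4585 CPM in Rrp6 libraries and 52.8, 50.7 and 38.8 in GFP libraries, and Rrp40 had 71.7 and 18679 CPM in Rrp40 libraries and 47.5, 46.9 and 45.3 in GFP libraries. The same caution therefore holds for the libraries labelled Rrp6 or Rrp40 dsRNA.

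Of the cell-type markers, the 10 hemocyte genes, among them Pxn and srp, summed to 2578 to 4260 CPM in Csl4 and 2901 to 3524 in GFP libraries. None of the 8 tested was called, and their median took either sign among the alternatives. The GATA factor gene srp had 536 and 485 CPM in Csl4 libraries and 540.4, 603 and 439 in GFP libraries. Fat body markers summed to at most 1.60 in Csl4 and 2.59 in GFP libraries. Muscle markers (Mlc2 at -1.26 ± 0.48, Act57B at -0.44 ± 0.64) varied between libraries of one group, from 104 to 571 in Csl4 and from 136 to 871 in GFP libraries, and their part in the results was not tested. Sums were 21.6 to 27.4 in Csl4 and 13.8 to 28.5 in GFP libraries for neuron and glia markers (brp at 2.26 ± 0.74, elav at 0.12 ± 0.44, neither called, with a median of 1.19 that was -0.14 on the 4 libraries of the deposited table alone), 52.9 to 67.3 and 31.3 to 72.5 for germline markers (piwi, aub), and 131 to 175.5 and 124 to 148 for epithelial markers (baz, sd).

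Few genes passed the test, and nearly all of those were higher in Csl4 libraries. Of 7923 genes tested, 18 were called higher (0.227%) and 1 lower (0.0126%), with adjusted p from 0.00794 to 0.0404. At an unadjusted p below 0.05, 553 genes were higher (6.98%) and 276 lower (3.48%). The median change over all tested genes was -0.00, and the interquartile range ran from -0.25 to 0.31. The called increases ran from 1.62 to 4.91 on the log2 scale. All 18 were higher in each of the 3 pairs of a Csl4 library with a GFP library of its depth class, and AcCoAS, the gene called lower, was lower in each. The test used the same reads and classes, and the pairs share the deeper Csl4 library in part, so nothing is read from this count.

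The number called depends on the libraries and the terms of the fit. Without the depth-class block 0 genes were called (370 at an unadjusted p below 0.05), and leaving out 1 of the 5 libraries left 0 to 3 calls. DESeq2 called 101 higher and 44 lower, 116 and 46 were called on the 4 libraries of the deposited table alone, and 157 and 52 without a filter on low counts. Each of these 3 fits called all 19 genes, and every fit run gave the 19 genes the same direction.

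Across the 5904 genes with a mean of at least 50 reads at the median depth, the change in the deeper pair (Csl4 deeper library and GFP replicate 1) and that in the shallower pair (Csl4 shallower library and GFP replicate 3) had a Pearson r of 0.237. The 2 pairs share no library, but genes are not independent replicates, and the value is a description. The SD over genes was 0.484 in the deeper and 0.556 in the shallower pair, on the log2 scale. Of these genes, 36 were higher and 8 lower by more than 1 log2 unit in all 3 pairs.

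**Figure D1:**
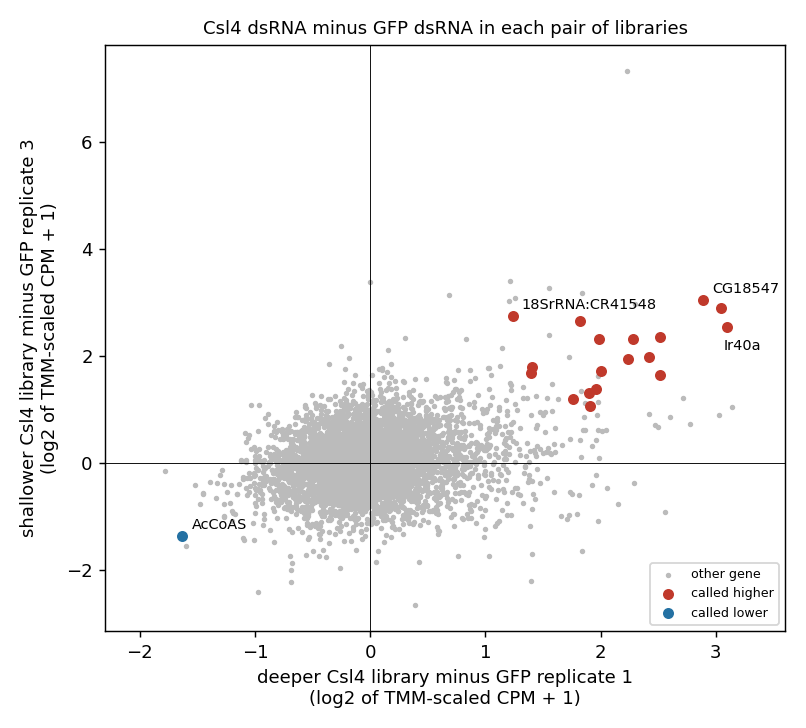
Change of each gene with a mean of at least 50 reads at the median depth, as the log2 difference of TMM-scaled CPM + 1, in the deeper pair (x axis) and the shallower pair (y axis). Points are genes, with the 18 genes called higher in red (whatever their mean) and the 1 called lower in blue: the red points lie above 0 on both axes and AcCoAS below 0 on both, while most grey points scatter around 0 (Pearson r of 0.237 over all 5904).

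The increases with the smallest adjusted p were CG18547 and Ir40a. CG18547 had 232 and 251 CPM in the Csl4 libraries, against 30.4, 30.3 and 29.8 in GFP libraries. The libraries of each group were close together and both Csl4 libraries lay far above all GFP libraries. The rise was 8.19-fold (3.03 ± 0.29, adjusted p = 0.00794). Next to CG18547 on chromosome arm 3R, in the gene order of the RefSeq annotation of Release 6, stand CG12224 and then CG3397, and both were called as well. CG12224 had 110.2 and 53.7 CPM in Csl4 libraries, against 30.4, 25.7 and 7.77 in GFP libraries (2.20 ± 0.29, adjusted p = 0.0306). CG3397 had 22.5 and 8.01 CPM in Csl4 libraries and 3.39, 3.34 and 1.30 in GFP libraries (2.54 ± 0.38, adjusted p = 0.0307). In both genes each Csl4 library lay above every GFP library, and the shallower library of each group was the lowest of its group. Beyond the 3 genes, mfas on one side gave -0.07 ± 0.25, and on the other CG10005, beyond an untested long noncoding RNA gene, gave 2.27 ± 0.76 from 7 and 1 reads in Csl4 and 2, 34 and 0 reads in GFP libraries, neither of them called. That the 3 genes are neighbours was noticed after their values were seen. The sources used here do not say if counting used strand.

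Ir40a, Dop2R, Best2 and nrm were also called higher, and they are described together as genes of membrane proteins, a grouping made after the calls were seen and not tested as a list. Ir40a, an ionotropic receptor that takes part in humidity sensing in the antenna, had 89.3 and 126 CPM in Csl4 libraries and 9.53, 8.52 and 20.7 in GFP libraries. The groups were far apart and the rise was 8.91-fold (3.16 ± 0.33, adjusted p = 0.00909). Dop2R, a D2-like dopamine receptor, had the highest fitted change (4.91 ± 0.75, adjusted p = 0.0313) from few reads, with 4.88 and 10.4 CPM in Csl4 libraries and 0.48, 0.07 and 1.30 in GFP libraries. Dop2R lay above all GFP libraries in both Csl4 libraries, yet its fold rests on a control level near 0, and it was not called in the fit without the Rrp6 libraries. Its mean over the S3 libraries comes largely from the Rrp6 libraries (36.0 and 97.1 CPM). Best2, a bestrophin of the chloride channel family, had 49.4 and 41.7 CPM in Csl4 libraries, against 12.4, 13.3 and 19.4 in GFP libraries (1.68 ± 0.25, adjusted p = 0.0307). The immunoglobulin-family adhesion gene nrm had 185 and 176 CPM in Csl4 libraries, against 38.3, 26.7 and 45.3 in GFP libraries (2.25 ± 0.33, adjusted p = 0.0307). In both genes the libraries of a group were close and the groups did not overlap.

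Of the 18 genes called higher, 17 had both Csl4 libraries above all 3 GFP libraries in CPM, which 11.8% of all tested genes did. The test used the same reads, so nothing is read from this count. AcCoAS lay below all 3 GFP libraries in both Csl4 libraries, as 9.59% of the tested genes did.

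CG2909, CG31777, dcma and an ID with no symbol were called higher too. CG2909 had 136 and 143 CPM in Csl4 libraries and 33.1, 34.3 and 42.7 in GFP libraries (2.00 ± 0.27, adjusted p = 0.0306), with close values within each group. In CG31777 (26.6 and 94.5 in Csl4, 4.68, 4.93 and 18.1 in GFP libraries, 2.66 ± 0.40) and dcma (57.2 and 215.5 in Csl4, 9.21, 9.27 and 41.4 in GFP libraries, 2.48 ± 0.39) the shallower library of each group was the highest, and in both genes each Csl4 library still lay above every GFP library. The gene ID FBgn0039060, which has no symbol in the tables used, had 21.7 and 32.0 CPM in Csl4 libraries and 4.85, 3.47 and 11.7 in GFP libraries (2.18 ± 0.33). The adjusted p was 0.0307 for CG31777, 0.034 for dcma and 0.0307 for FBgn0039060.

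The remaining called genes fell outside the rule for naming genes and are listed since they complete the set. Rdh1, a retinol dehydrogenase gene, had 393 and 278 CPM in Csl4 libraries and 105, 111 and 113 in GFP libraries (1.66 ± 0.23). Fur1, a furin-type proprotein convertase, had 200.2 and 234 in Csl4 libraries and 75.1, 79.3 and 67.3 in GFP libraries (1.62 ± 0.24). Both genes had groups that did not overlap. Cht7, a chitinase gene, had 16.5 and 6.41 CPM in Csl4 libraries and 1.13, 0.42 and 0 in GFP libraries, so its fitted change depends on a control at or near 0. CR31427, a pseudogene in the RefSeq table, had 55.9 and 45.7 in Csl4 libraries and 15.8, 15.6 and 19.4 in GFP libraries (1.64 ± 0.26), and a pseudogene can share reads with its parent gene. Another gene ID with no symbol completes the 18.

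**Figure D2:**
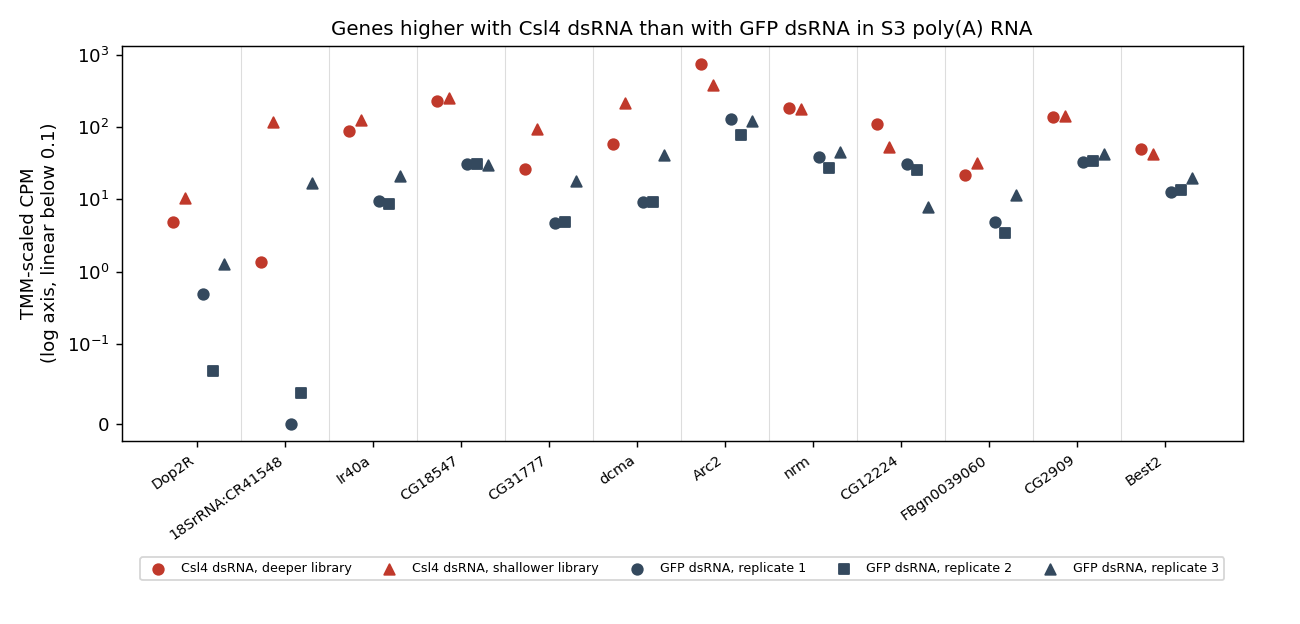
TMM-scaled CPM (log axis, linear below 0.1) of the 12 largest called increases in each library, Csl4 dsRNA in red at the left and GFP dsRNA in dark grey at the right of each gene. In CG18547 the Csl4 points (232 and 251) stand well above the GFP points (29.8 to 30.4), and in 18SrRNA:CR41548 the deeper Csl4 library (1.36) lies below GFP replicate 3 (16.8).

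Ribosomal RNA reads followed the depth class. The annotated 18S copy 18SrRNA:CR41548 was called higher (3.49 ± 0.56, adjusted p = 0.0404) from 5 and 148 reads in the deeper and shallower Csl4 libraries and from 0, 3 and 13 reads in GFP replicates 1, 2 and 3. Its groups overlapped in CPM, at 1.36 and 119 in Csl4 and 0, 0.04 and 16.8 in GFP libraries. Ribosomal RNA genes exist in many near-identical copies, so how its reads were assigned is uncertain. In the authors' deposited table, 1 gene ID had an adjusted p of at most 0.05, FBgn0085818, which has no symbol in the tables used, with a fold of 10.7 and an adjusted p of 0.00808. It held 315 reads in the shallower Csl4 library and 18 in GFP replicate 3, against 0 in the deeper Csl4 library and in GFP replicates 1 and 2. All its reads thus came from the shallower class, and on the recovered reads it was not called (adjusted p = 0.0749). In the same authors' deposited table, Ir40a had a fold of 7.01 and an adjusted p of 0.0527, CG18547 a fold of 7.93 and an adjusted p of 0.0535, and 10595 genes had an adjusted p.

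The gene called lower was AcCoAS, acetyl-CoA synthase, which makes acetyl-CoA from acetate. It had 35.5 and 16.0 CPM in the Csl4 libraries, against 112, 124 and 42.7 in GFP libraries. Both Csl4 libraries lay below every GFP library, and the shallower library was the lowest of each group. The level in Csl4 libraries was 0.325 of that in GFP libraries, a change of -1.62 ± 0.24 (adjusted p = 0.0307). The next 11 genes by p among lower genes were not called (adjusted p from 0.0749 to 0.16). Of these, Acat1, which joins acetyl-CoA units, had 38.5 and 36.1 CPM in Csl4 libraries and 90.0, 109 and 77.7 in GFP libraries (-1.30 ± 0.24). Bcat, the branched-chain amino acid transaminase, had 123 and 99.3 in Csl4 libraries and 282, 276 and 192 in GFP libraries (-1.07 ± 0.21). Neither gene's groups overlapped. Echs1, an enoyl-CoA hydratase, had 202 and 194 in Csl4 libraries and 458, 538 and 374 in GFP libraries (-1.19 ± 0.23), and Mccc2, a methylcrotonyl-CoA carboxylase subunit, had 34.2 and 23.2 in Csl4 libraries and 74.8, 88.7 and 63.4 in GFP libraries (-1.32 ± 0.28). The large-subunit ribosomal protein genes RpL3 (-1.20 ± 0.25) and RpL15 (-1.07 ± 0.26) overlapped between groups in CPM, since both ran higher in shallower libraries: RpL3 had 602 and 2853 in Csl4 libraries and 1679, 1914 and 4838 in GFP libraries. The others were CG6293 (-1.08 ± 0.24), CG17896 (-1.15 ± 0.25), CG18135 (-1.14 ± 0.26), CG15093 (-1.13 ± 0.26) and Arms (-1.15 ± 0.28).

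**Figure D3:**
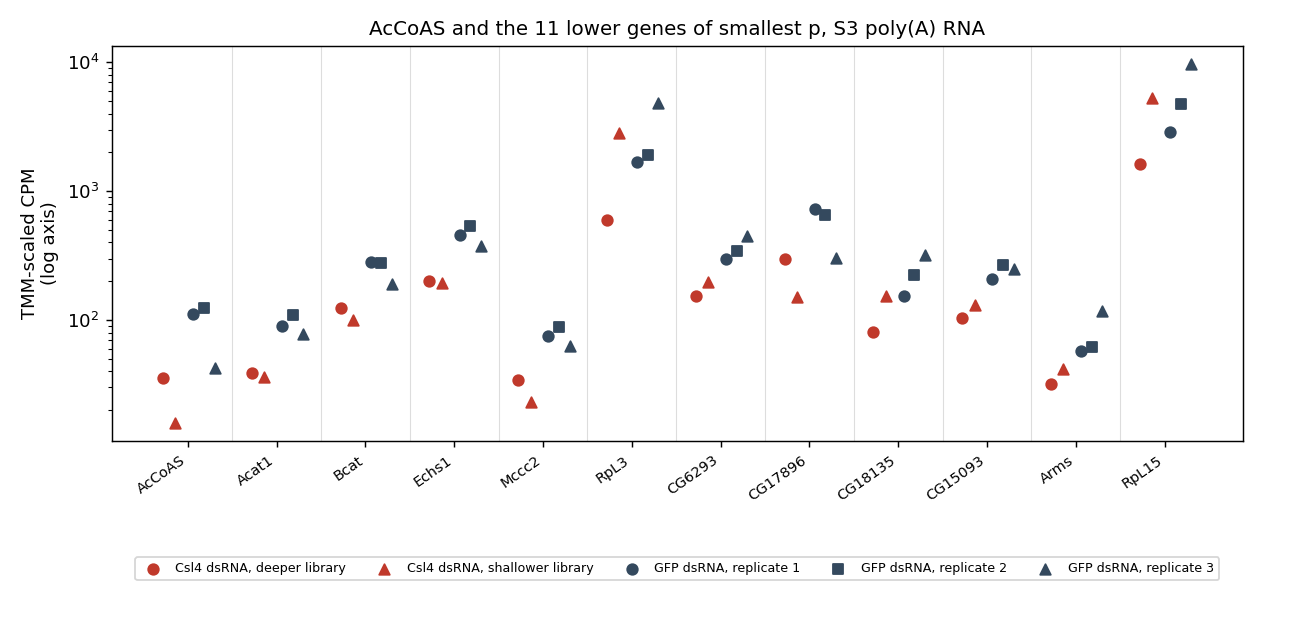
TMM-scaled CPM (log axis) of AcCoAS and of the 11 lower genes with the next smallest p, which were not called, in each library, Csl4 dsRNA in red at the left and GFP dsRNA in dark grey at the right of each gene. The AcCoAS points with Csl4 dsRNA (35.5 and 16.0) lie under all GFP points (42.7 to 124), whereas the RpL3 points of the 2 groups overlap.

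Because several of these genes act in mitochondrial breakdown of fatty acids and branched-chain amino acids, a list of 18 such genes was drawn up after their values were seen, and its counts are a description. All 17 tested members had a change below 0, the median was -0.70 and 12 had an unadjusted p below 0.05 on the lower side, against 3.48% of all tested genes. None was called. The 13 members other than Acat1, Bcat, Echs1 and Mccc2 belong to the same list and are no separate check. They had a median of -0.64, and 8 of these 13 had an unadjusted p below 0.05. Both subunit genes of the mitochondrial trifunctional protein, Mtpalpha (-0.61 ± 0.26) and Mtpbeta (-0.70 ± 0.24), and the carnitine palmitoyltransferase gene CPT2 (-0.73 ± 0.23) were among them. The carnitine carrier gene colt was nearest to 0 (-0.19 ± 0.29). Summed over the list, CPM were 1636 and 1624 in Csl4 libraries and 2778, 3152 and 2352 in GFP libraries, so the sums did not overlap. The median stayed between -0.93 and -0.65 under the 11 alternative settings.

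Activity-regulated genes, which neurons and other cells transcribe soon after stimulation, lay above 0 in all 4 members, with a median of 2.27. Arc2, one of a pair of retrotransposon-derived capsid genes, was called, with 743 and 384 CPM in Csl4 libraries and 129, 78.7 and 122 in GFP libraries (2.39 ± 0.35, adjusted p = 0.0307). Its groups did not overlap. Arc1, the other of the pair, had 964 and 4327 in Csl4 libraries and 354, 375.5 and 1814 in GFP libraries (1.42 ± 0.34, adjusted p = 0.154), so the groups overlapped although each Csl4 library exceeded the GFP libraries of its class. The transcription factor genes sr (2.70 ± 0.83, adjusted p = 0.274) and Hr38 (2.16 ± 1.05, adjusted p = 0.523) were not called, and in sr the deeper Csl4 library (11.1, with 32.0 in the shallower one) lay below GFP replicate 3 (16.8, with 0.48 and 1.11 in replicates 1 and 2). With unadjusted p below 0.05 stood 3 of the 4, where 6.98% of all tested genes did. Arc1 and Arc2 are related in sequence, and the sources used here do not say how shared reads were counted.

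Small noncoding RNAs are processed by the nuclear exosome. Reads in any S3 library were found for 19 of 29 snRNA genes and 10 of 219 snoRNA and scaRNA genes. Why the others had none in poly(A) libraries was not tested. Of 29 snRNA genes 7 were tested, 6 of them had changes above 0 (median 1.00, and 0.39 to 1.17 over the alternatives) and none was called, with 4 at an unadjusted p below 0.05 on the higher side, against 6.98% of all tested genes. snRNA:U12, of the minor spliceosome, had 32.6 and 101 CPM in Csl4 libraries and 14.2, 23.7 and 22.0 in GFP libraries (1.31 ± 0.35, adjusted p = 0.196). Its groups did not overlap. snRNA:7SKa, which holds the elongation factor P-TEFb inactive, had 86.3 and 123 in Csl4 libraries and 78.7, 112.5 and 94.5 in GFP libraries (0.17 ± 0.51), with overlap. Of 219 snoRNA and scaRNA genes 8 were tested, with a median of 0.69 (-0.09 without the shallower Csl4 library) and none called. snoRNA:Psi18S-176, a guide of pseudouridylation, had 380.4 and 107 CPM in Csl4 libraries and 193, 250.0 and 53.1 in GFP libraries (0.82 ± 0.33, adjusted p = 0.406), and snoRNA:Or-aca4 gave -0.16 ± 0.74. Of 117 long noncoding and antisense RNA genes 28 were tested and none was called. Their changes were above 0 in 24 of the 28, with a median of 0.40, against 49.9% of all tested genes above 0. The members with most reads were lncRNA:CR42862 (0.02 ± 0.23) and asRNA:CR31144 (-0.96 ± 0.33), whose level ran from 174 to 2521 in Csl4 libraries and from 227 to 8479 in GFP libraries. Noncoding snoRNA host genes (7 tested) had a median of -0.01 that took either sign among the alternatives (-0.51 to 0.46) and none called, with Uhg3 at 0.32 ± 0.44 and Uhg2 at -0.23 ± 0.43. The 37 mitochondrially encoded genes are listed at 0 reads in every S3 library.

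RNA decay genes other than Csl4 were near the background. The 10 genes of the exosome ring and nucleases had none called and a median of 0.15 (-0.03 without GFP replicate 3). The nuclease gene Dis3 had 101 and 92.1 CPM in Csl4 libraries and 107, 121 and 55.7 in GFP libraries (0.14 ± 0.28), so its groups overlapped, and the other untargeted ring and cap genes ran from Ski6 at -0.54 ± 0.36 to Rrp4 at 0.38 ± 0.30. Exosome helicases and adaptors (11 tested) had a median of -0.11, with the helicase gene Mtr4 at -0.11 ± 0.24 and the cap-binding partner Ars2 at 0.06 ± 0.21. Genes of 5′ decay, decapping and deadenylation (17 tested) had a median of -0.14, with the deadenylase scaffold Not1 at 0.14 ± 0.23 and the helicase me31B at -0.32 ± 0.28. Nonsense-mediated decay genes (6 tested, median -0.13, or 0.04 without the deeper Csl4 library, Smg5 at -0.36 ± 0.33 and Smg6 at 0.07 ± 0.21) and siRNA and miRNA genes (14 tested, median -0.10, AGO2 at -0.23 ± 0.22 and Tudor-SN at -0.51 ± 0.29) had none called. The insulator protein genes (15 tested) had none called and a median of -0.01 that took either sign among the alternatives (-0.18 to 0.19), with Cp190 at -0.17 ± 0.21 and mod(mdg4) at 0.09 ± 0.28.

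Genes of growth and division had medians below 0, and none passed the test. Of 27 cyclin and mitosis genes, 26 had changes below 0 (50.1% of all tested genes did), with a median of -0.45, 5 at an unadjusted p below 0.05 on the lower side (3.48% of all tested genes) and none called. The mitotic kinase gene polo had 280.3 and 373 CPM in Csl4 libraries and 493.5, 457 and 409 in GFP libraries (-0.50 ± 0.27), without overlap. CycG, at 624 and 1046 in Csl4 libraries and 663, 629 and 1697 in GFP libraries, gave -0.31 ± 0.26. The MCM helicase and nucleotide supply genes were below 0 in 11 of 12, with a median of -0.42 and none called, with PCNA at -0.27 ± 0.36, and the exception was the ribonucleotide reductase gene RnrL (0.38 ± 0.32). Cytosolic ribosomal protein genes were below 0 in 72 of 77 tested, with a median of -0.22, 9 at an unadjusted p below 0.05 on the lower side and none called. Summed over all 81 genes of the list, tested or not, CPM were 91280 and 259800 in Csl4 libraries and 113000, 134700 and 277000 in GFP libraries. The sums differed more between depth classes than between dsRNAs. The direction of the ribosomal protein median depends on the setting, since it was 0.07 in the fit without the block.

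Other housekeeping lists had no called member. Their medians were -0.16 for proteasome subunits (32 tested, 27 below 0, Prosbeta5 at -0.15 ± 0.26 and Rpn6 at -0.25 ± 0.20), -0.16 for aminoacyl-tRNA synthetases (31 tested, 24 below 0, AlaRS at -0.14 ± 0.20 and AspRS at -0.62 ± 0.45) and -0.11 for nuclear oxidative phosphorylation genes (66 tested, ATPsynbeta at -0.76 ± 0.26 and ATPsynC at -0.07 ± 0.35, with a median of 0.00 without GFP replicate 2). Mitochondrial ribosomal proteins (68 tested, mRpL15 at -0.12 ± 0.21 and mRpS9 at 0.09 ± 0.25) had a median of -0.08 (-0.19 to 0.03 over the alternatives). The median of snoRNP and nucleolar proteins (12 tested, Nlp at 0.33 ± 0.27 and Non1 at -0.46 ± 0.29) was 0.33, with 10 of the 12 above 0. Of all tested genes, 50.1% were below 0 and 49.9% above. An unadjusted p below 0.05 on the lower side was found for 2 proteasome and 0 synthetase genes, and on the higher side for 0 snoRNP and nucleolar genes.

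Stress, signalling and P450 lists had no called member either. Heat shock and chaperone genes were below 0 in 10 of 11 tested, with a median of -0.35 and 4 at an unadjusted p below 0.05 on the lower side, against 50.1% of all tested genes below 0 and 3.48% at such a p. The endoplasmic reticulum chaperone Hsc70-3 had 1216 and 3000.5 CPM in Csl4 libraries and 2878, 2786 and 4352 in GFP libraries (-0.87 ± 0.27, adjusted p = 0.281), with overlap, and Hsp83 gave -0.11 ± 0.23. DNA repair and checkpoint genes (15 tested, median 0.32, or -0.00 without the deeper Csl4 library) had 4 at an unadjusted p below 0.05 on the higher side. Of this list, mre11, of the break-resecting complex, had 154 and 195.5 in Csl4 libraries and 114, 109 and 105 in GFP libraries (0.73 ± 0.26, adjusted p = 0.347), without overlap, and the checkpoint kinase grp gave -0.30 ± 0.28. Cell death genes (10 tested) had a median of 0.42, with the stress-responsive transcription factor gene Xrp1 at 0.46 ± 0.29. JAK-STAT genes (9 tested) had a median of 0.40, with Stat92E at 0.40 ± 0.26 and the receptor et at -0.78 ± 0.26. JNK genes (11 tested) had a median of 0.30, with the ligand egr, which the cell death list also holds, at 0.38 ± 0.30 and the kinase msn at 0.26 ± 0.25. The ecdysone list (11 tested, MsrA at -1.19 ± 0.54 and Cth at 0.01 ± 0.43) had a median of 0.15, and the antimicrobial and Imd list (6 tested, the kinase gene Tak1 at -0.16 ± 0.24 and key at 0.03 ± 0.23) one of -0.12, which was -1.28 without a filter on low counts. Cytochrome P450 genes (42 of 84 tested, Cyp9c1 at -0.23 ± 0.30 and Cyp6w1 at 0.25 ± 0.36) had a median of 0.16 and 4 members at an unadjusted p below 0.05 on the higher side, where 6.98% of all tested genes stood. Of the 7 tested fatty acid and sterol response genes AcCoAS was the one called, and the median was -0.39.

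**Figure D4:**
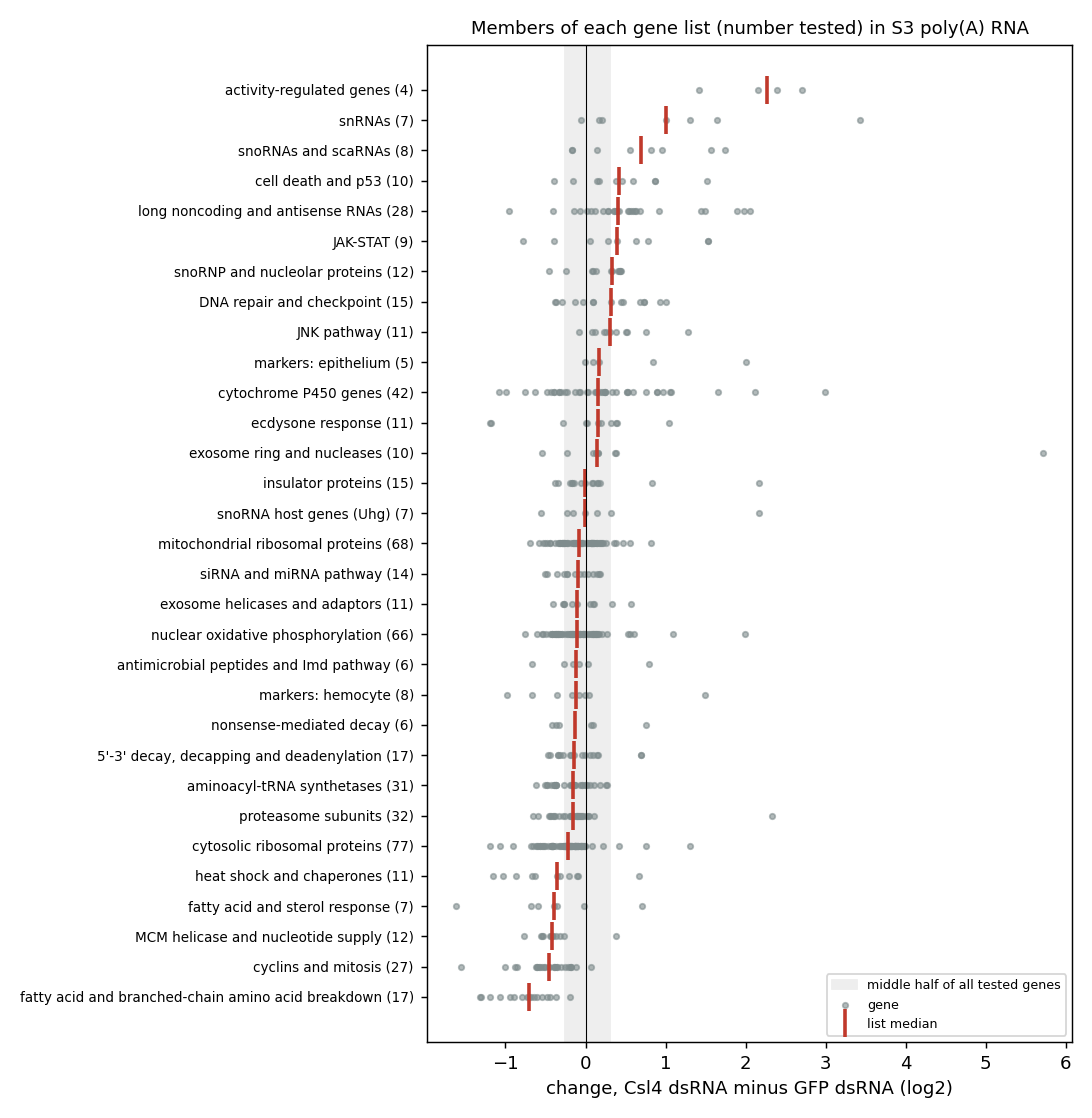
Change of each tested member of the lists drawn (grey points, log2 of Csl4 dsRNA over GFP dsRNA), with the list median (red bar) and the number tested. The shaded band marks the interquartile range of all tested genes (-0.25 to 0.31). Muscle (median -0.85), germline, and neuron and glia markers, with 2 or 3 tested members each, are not drawn. Among the lists drawn, the activity-regulated genes lie highest (median 2.27) and the breakdown genes lowest (median -0.70). The point at 5.72 in the exosome list is Csl4 itself.

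The Csl4 and Rrp6 libraries were compared directly in the same fit, with GFP libraries on neither side. Of 7923 genes, 576 were called higher in Csl4 than in Rrp6 libraries (7.27%) and 579 lower (7.31%), and 15.9% and 16.5% had an unadjusted p below 0.05 on these sides. Without the depth-class block 0 were called (1439 at an unadjusted p below 0.05). The count was 2 without the deeper Csl4 library, 26 without the shallower one, 159 (50 higher and 109 lower) without the deeper Rrp6 library and 2379 (1541 higher and 838 lower) without the shallower one. Growth genes stood higher in Csl4 than in Rrp6 libraries, with 54 of 77 cytosolic ribosomal protein genes (median difference 1.12), 40 of 66 oxidative phosphorylation genes (1.14), 34 of 68 mitochondrial ribosomal protein genes (1.10), 8 of 12 MCM and nucleotide supply genes (1.39) and 12 of 27 cyclin and mitosis genes (1.19) called on that side. The breakdown list had 8 of 17 called on that side (0.87). On the lower side stood 6 of 11 JNK genes (-1.16), and Arc1 with -3.22 ± 0.41 (adjusted p = 0.00575).

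By smallest p, the genes higher in Csl4 than in Rrp6 libraries were the thymidylate synthase gene Ts, CG3246 and the alkaline phosphatase gene Alp9. Ts had 183 and 98.5 CPM in Csl4 libraries and 24.1 and 18.3 in Rrp6 libraries (2.73 ± 0.28, adjusted p = 0.00431), without overlap. CG3246 differed by 2.40 ± 0.27 and Alp9 by 2.26 ± 0.26 (adjusted p = 0.00431 each). On the other side, CG15347 had 1.63 and 2.40 CPM in Csl4 libraries and 95.2 and 141 in Rrp6 libraries (-5.95 ± 0.60, adjusted p = 0.00431), and Tdh, named for threonine dehydrogenase, differed by -4.29 ± 0.46 (adjusted p = 0.00431). Both CG15347 values in Csl4 libraries lay far below both in Rrp6 libraries. Another gene ID of that rule has no symbol in the tables used.

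Among the 18 genes called higher against GFP, 7 were called lower in Csl4 than in Rrp6 libraries, as were 7.31% of all tested genes. None was called higher, and 11 were not called. The 18 were chosen with the same Csl4 libraries. The difference was -3.03 ± 0.54 for Dop2R, -1.39 ± 0.33 for Ir40a, -1.57 ± 0.29 for CG2909 and -1.52 ± 0.26 for Best2 (adjusted p of 0.0115, 0.0267, 0.0123 and 0.0109). For CG18547 it was -0.38 ± 0.30 (adjusted p = 0.413), for Arc2 -0.58 ± 0.38 (adjusted p = 0.318) and for CG12224 0.41 ± 0.31 (adjusted p = 0.384). The comparisons of each dsRNA with GFP share the GFP libraries, so their values stand side by side only. All 18 genes were also called higher with Rrp6 dsRNA, as were 19.7% of all tested genes. With Rrp40 dsRNA all 18 were above 0 at an unadjusted p below 0.05, where 3.7% of all tested genes stood. Ir40a gave 3.16 ± 0.33 with Csl4, 2.34 ± 0.33 with Rrp40 and 4.54 ± 0.34 with Rrp6 dsRNA. CG31777 gave 2.66 ± 0.40, 2.64 ± 0.39 and 1.81 ± 0.40 in the same order, and AcCoAS -1.62 ± 0.24, -1.89 ± 0.25 and -2.10 ± 0.25. Against GFP, edgeR called 1562 genes higher (19.7%) and 1297 lower (16.4%) with Rrp6 and 0 with Rrp40 dsRNA, where 293 (3.7%) and 144 (1.82%) had an unadjusted p below 0.05 on the higher and lower side.

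**Figure D5:**
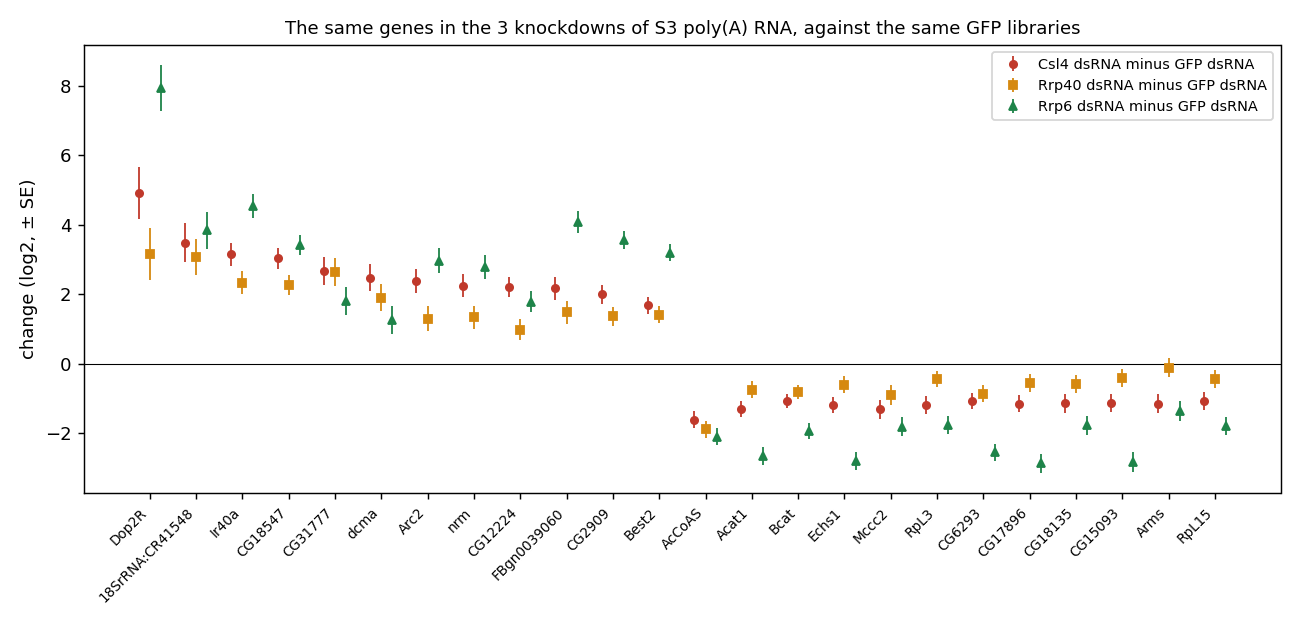
Change against the same 3 GFP libraries (log2 ± SE) with Csl4 (red circles), Rrp40 (orange squares) and Rrp6 dsRNA (green triangles). Shown are the 12 largest called increases among genes with at least 50 reads on average, AcCoAS and the 11 lower genes not called. The Csl4 point lies below the Rrp6 point in Ir40a (3.16 and 4.54) and above it in CG31777 (2.66 and 1.81).

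The Csl4 response was also compared between S3 and S2 cells, with the difference itself tested in a joint edgeR fit. No gene was called among 8984 in either direction (0% each). At an unadjusted p below 0.05, 178 genes (1.98%) had a higher and 161 (1.79%) a lower response in S3, and DESeq2 called 2 genes. In that fit CG2909 was also called with Csl4 dsRNA in S2 cells (1.70 ± 0.27, adjusted p = 0.0289), as was Rdh1 (1.47 ± 0.25, adjusted p = 0.0478). Of the 18 genes called higher in S3 cells, these 2 were called in S2 cells, and all 18 had a fitted change above 0 there. CR31427 had 0 reads in the Csl4 and GFP libraries of S2 cells, so its sign carries nothing. The shares of all genes called or above 0 in S2 cells were not counted, so nothing is read from these counts. Some of the 18 lay near 0 in S2 cells, such as Fur1 (0.16 ± 0.29) and CG31777 (0.22 ± 0.67). AcCoAS gave -0.59 ± 0.25 in S2 cells and was not called. CG18547 had 2.97 ± 0.35 in S3 and 2.36 ± 0.44 in S2 cells (adjusted p = 0.0794), and the difference between lines was 0.61 ± 0.56. Ir40a had 3.10 ± 0.30 in S3 and 2.15 ± 0.40 in S2 cells, with a difference of 0.94 ± 0.50.

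The genes with the smallest p for a higher response in S3 than in S2 cells were Invadolysin, a metalloprotease gene, CG8399 and scaf. Invadolysin had 0.98 ± 0.24 in S3 and -0.92 ± 0.37 in S2 cells. The difference was 1.48 ± 0.37 for CG8399 and 1.71 ± 0.44 for scaf. For a lower response they were Tdh (-4.67 ± 0.91), CG15347 (-3.21 ± 0.77) and lncRNA:roX2, a noncoding RNA of the dosage compensation complex (-1.36 ± 0.33). CG15347 had 489 and 22 reads in the deeper and shallower Csl4 libraries of S2 cells, against 52 and 3 in GFP libraries, and in S3 cells 6 and 3 in Csl4 libraries, against 9, 141 and 0 in GFP libraries. None of the 6 differences passed the adjustment, with an adjusted p of 1 for each.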

How the data were processed

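The tools named are TopHat 1.4.1 and HTSeq 0.5.3p9, with DESeq 1.9.11, cutadapt 1.0 and CASAVA 1.8, and the build is dm3, per the submitters' processing notes. Variance was estimated in each condition with a local dispersion fit, per the file headers. The deposited signal columns are group means of counts that the authors divided by size factors. The deposited fold (ratio) and log2 fold columns compare knockdown with GFP means, and the deposited p-value columns are the authors' test. No sequence is shown, since no genome was used here.

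Whole reads per library were recovered from the means for all 15065 genes of each group (100% within 1e-06 reads), and the count tests were run on these reads. GFP libraries recovered from separate tables did not differ in any gene. HTSeq summary rows held 81.0% (Csl4) and 82.5% (GFP) of the mean total and were left out. Of 15065 gene IDs 14085 matched a symbol and 980 did not.

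edgeR 4.0.16 (quasi-likelihood, TMM, filterByExpr, Benjamini-Hochberg, R 4.3.3) was fitted over 9 S3 poly(A) libraries with dsRNA and depth class as terms. The technical replicates of replicate 2 count as 1 library in GFP and as 1 in Rrp40. The deeper class stands for replicates 1 and 2 and the shallower for replicate 3. With no Csl4 library of replicate 2, a difference between replicates 1 and 2 is not taken out of the Csl4 change. The labels give quality encodings that differ between replicates 1 and 3. The class of Csl4, Rrp6 and Rrp40 libraries was taken from their depth. Deeper minus shallower differences correlated between all groups (0.367 to 0.781 over 5754 genes), which was the check of the pairing. For GFP it used replicates 1 and 3, so it does not check that replicates 1 and 2 belong to 1 class. An earlier pass over these data chose the block with its call counts known. The SE is the absolute change over the square root of F. The code was tested on simulated data. Members, gene lists and tests were chosen with earlier results of these data known.

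The text names the targeted genes and the 12 largest called changes in each direction, filled up by smallest p. These changes needed at least 50 reads on average at the median depth and the same direction in all 3 pairs. Also named are up to 4 called or else the 2 most-read members of each list. The contrasts with Rrp6 and between lines add 3 genes in each direction by smallest p. Of the genes this rule names, 1 is left out and not reported here, and IDs with no symbol are named only in part. DESeq2 1.42.0, no block, RLE scaling, no filter, fewer libraries and leaving out each library were the alternatives.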

Additional observations from a re-analysis of the deposited data

How the results depend on the processing

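Called genes in Csl4 against GFP libraries numbered 19 in the fit reported, 0 without the replicate block, 145 with DESeq2, 209 without a filter on low counts, 162 on the 4 libraries of the deposited table, 19 with RLE scaling and 28 without the Rrp6 libraries, the last chosen after seeing the data. Leaving out each library gave 0 to 3: 1 without the deeper Csl4 library (not among the 19), 0 without the shallower Csl4 library, GFP replicate 1 or GFP replicate 2, and 3 without GFP replicate 3 (CG18547, Ir40a and Arc2). DESeq2 moved the median of all genes to 0.13. Csl4 against Rrp6 gave 1155 calls, 0 without the replicate block, 1771 without the filter and 2 to 2379 with a library left out. The contrast between lines gave 0 calls, also without the replicate block, 2 with DESeq2, 18 without the filter and 0 to 1 with a library left out. The cause of these shifts was not tested, other than that leaving out libraries leaves fewer samples. Of 97 named genes, 33 took the other sign under at least 1 alternative, none of them called in the fit reported. Of the single-gene results under these settings, 935 kept their side of the threshold, 52 passed it and 76 lost it. Of the list medians, 312 kept within their spread and 62 moved, with the sign changes given beside the lists. The median SE was 0.31 on the log2 scale, and the smallest called change was 1.62 in size. How far depth limits the calls was not tested.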
